A study of Capra hircus with 3 samples.

Results

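MGP- and COL12A1-carrying stroma made up 3249 of the 7325 barcodes kept from the library labelled E125, or 44.4% (exact Clopper-Pearson interval 43.2 to 45.5%). The library belongs to a droplet single-cell RNA series on fetal gonads of the domestic goat, Capra hircus, in which 20825 barcodes were kept in all. A barcode was a member if it had at least 1000 unique molecular identifiers (UMIs, each counting 1 captured RNA molecule) and at most 20% mitochondrial UMIs, with at least 3 UMIs of MGP and COL12A1 together and more of these than of CHODL. Members also had less than 0.2% of UMIs from ZP3, fewer than 2 UMIs of CDH5, ROBO4, SOX18, TIE1 and ESAM together, and fewer than 3 of FST, KCNK12 and HSD17B1 together. Members were thus chosen by the measured UMIs of these genes, whose values are described below and support nothing.

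MGP encodes matrix Gla protein, a small secreted protein that is gamma-carboxylated with the help of vitamin K, binds calcium and restrains mineral deposition in soft tissue. COL12A1 encodes the chain of collagen XII, which sits on the surface of collagen I fibrils and links them to the surrounding matrix. Fetal gonads hold a mesenchymal stroma between the germ cell compartments, marked by the proteoglycan decorin (DCN), the growth factor receptor PDGFRA and the transcription factors TCF21 and NR2F2. It lays down matrix and gives rise to steroidogenic and contractile lineages. CHODL encodes chondrolectin, a membrane lectin.

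The libraries came from enzyme-digested gonads labelled as male testis at stages E85, E105 and E125 (embryonic days), with 1 library for each stage and no treatment given. The labels do not say how many animals were pooled. Kept barcodes numbered 6376 for E85, 7124 for E105 and 7325 for the library labelled E125, with medians of 4905, 3103 and 3317 UMIs. With 1 library per stage there are no replicates, so differences are given untested, and intervals are exact at 95% and cover counting error only. The contents of the library labelled E125 went against its testis label: 138 barcodes met the limit for an oocyte class, at least 0.2% of UMIs from the egg-coat gene ZP3, against 0 at E85 and 2 at E105. The label is therefore used only as the name of the library, and stage, animal and contents cannot be told apart. Between 9 and 14 barcode sequences were shared by any pair of libraries, and 7 members carried a barcode also found at E85 and 2 a barcode also found at E105.

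MGP was found in 98.9% of members and COL12A1 in 60.8%. A member held a median of 7 MGP UMIs, with a 10th percentile of 3, a 90th of 17 and a highest value of 69. COL12A1 had a median of 1 UMI, a 90th percentile of 4 and a highest value of 16. Both genes were present in 1939 members, MGP alone in 1275 and COL12A1 alone in 35, so membership rested mainly on MGP. CHODL was found in 303 members (9.33%).

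The threshold cut a graded distribution. Among barcodes that met the other limits, 451 held 2 UMIs of the class genes and stood just outside, and 372 held 3 UMIs, of which 354 had more of them than of CHODL and stood just inside. Those just outside had DCN at 4147 CPM (UMI counts of a gene scaled to the same total in every class) and in 97.1% of barcodes, and those at 3 UMIs had DCN at 3608 CPM and in 97.0%. Median depth was nearly level around the threshold, at 2726 UMIs for 0 class UMIs, 2678 for 1, 2606 for 2 and 2695 for 3, and reached 4077 at 20 or more. No gap separated members from the stroma below the threshold.

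**Figure D1:**
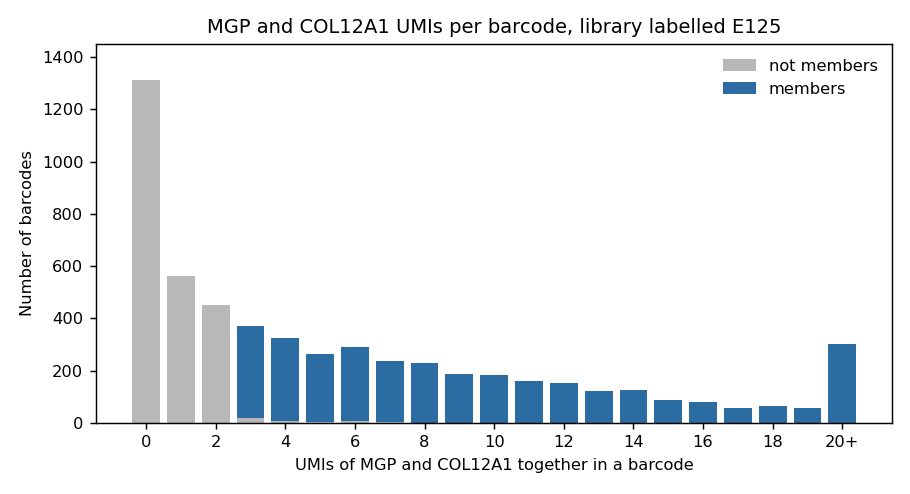
Number of barcodes (vertical axis) by their UMIs of MGP and COL12A1 together (horizontal axis; 20+ pools 20 and more), for the 5614 barcodes of the library labelled E125 that met the other limits; blue marks members and grey the rest. Counts decline from 1314 barcodes at 0 UMIs to 451 at 2 and 372 at 3, with no gap at the threshold, and 300 barcodes held 20 or more.

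Leukocytes, which should lack MGP, were taken as a gauge of the background of free RNA. They were chosen irrespective of MGP and COL12A1, and 18 members held at least 3 immune marker UMIs. Members and leukocytes can therefore share barcodes, so leukocyte levels need not be those of free RNA alone. MGP stood at 2359.95 CPM in members and 114 CPM in 186 leukocytes of the same library, which are barcodes with immune markers, PTPRC and no UMI of the endothelial rule genes. After each barcode was thinned to 1000 UMIs, MGP was found in 85.2% of members and 3.23% of leukocytes, whose median depths were 3143 and 4890 UMIs. COL12A1 stood at 405 CPM and in 31.5% of thinned members, against 11.3 CPM and 1.08% of leukocytes. In the endothelial class MGP reached 436 CPM, above the leukocyte level.

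MGP and COL12A1 tended to occur in the same barcodes. Among the 5614 barcodes that met the other limits, thinned to 1000 UMIs, COL12A1 was found in 28.0% of those with MGP and 13.5% of those without. CHODL was found in 5.08% of barcodes with MGP and 9.37% without. DCN was found in 87.0% and 72.5%. These shares describe 1 library and include barcodes that are not stroma.

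The same rule found only 41 barcodes at E85 (0.643%) and 52 at E105 (0.730%), and their levels differed from those of the members. The plan compared no class under 50 barcodes, so the E85 levels are a description beyond the plan. RGS5, a marker of pericytes, stood at 257 CPM in the E85 barcodes and 380 CPM in the E105 barcodes, against 4.41 CPM in members. DCN stood at 628 and 990 CPM, against 3037 CPM in members. ACTA2, smooth muscle actin, stood at 1417 and 1349 CPM, against 159 CPM. COL12A1 was at 29.9 and 32.7 CPM, and MGP exceeded it in 40 of the 41 barcodes at E85 and 50 of the 52 at E105. The 2 COL12A1-led barcodes at E105 held 78181 of the 244561 UMIs there, so the summed levels at E105 lean on them. The Sertoli gene AMH was at 586 and 634 CPM in them and at 0.764 CPM in members, and the part of RNA from other cells was not tested.

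Members carried the stromal markers. Of 10 listed, 9 had a symbol in the files and all 9 were detected, summing to 6711 CPM, and 99.9% of members held at least 2 UMIs of them. DCN was at 3037 CPM (3006 to 3069), TCF21 at 963 CPM (945 to 981), COL1A2 at 873 CPM, NR2F2 at 707 CPM, COL1A1 at 599 CPM and PDGFRA at 269 CPM. LUM, the proteoglycan lumican, at 73.0 CPM, and POSTN, periostin of the matrix, at 28.5 CPM, were the low members of the list.

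Markers of other cell types summed to between 19.3 and 477 CPM per list. Immune markers summed to 36.8 CPM, with 7 of 9 detected and CD3E and CD53 at 0, and 0.708% of members held at least 2 of their UMIs. Mesothelial markers summed to 37.7 CPM, Schwann markers to 19.3 CPM with ERBB3 at 0, Sertoli markers to 62.3 CPM and endothelial markers to 66.0 CPM. The rule caps other endothelial genes (CDH5, ROBO4, SOX18, TIE1 and ESAM) in members, so the low endothelial sum is partly fixed by the rule. Pregranulosa markers summed to 55.9 CPM with RSPO1 at 0. That list includes FST, KCNK12 and HSD17B1, which the rule caps in members, so its low sum is partly fixed by the rule. Oocyte markers summed to 178 CPM, of which ZP3 gave 113 CPM. ZP3 was found in 12.9% of thinned members and 12.4% of thinned leukocytes. Barcodes over the ZP3 limit had been removed from both classes, so both shares are capped by the same rule. Their closeness is therefore partly fixed, and whether the ZP3 of members was background was not tested. Steroidogenic markers summed to 93.4 CPM, with FDX1, a mitochondrial electron carrier, at 46.6 CPM, CYP11A1, the side-chain cleavage enzyme, at 10.3 CPM and STAR, a cholesterol carrier, at 6.53 CPM.

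Mural markers summed to 477 CPM, and 36.4% of members held at least 2 of their UMIs. Smooth muscle myosin MYH11 gave 232 CPM of that sum and the receptor NOTCH3 gave 105.1 CPM. The pericyte marker RGS5 gave 4.41 CPM. Mural markers summed to 739 CPM in the stroma of the same library that fell under the threshold.

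**Figure D2:**
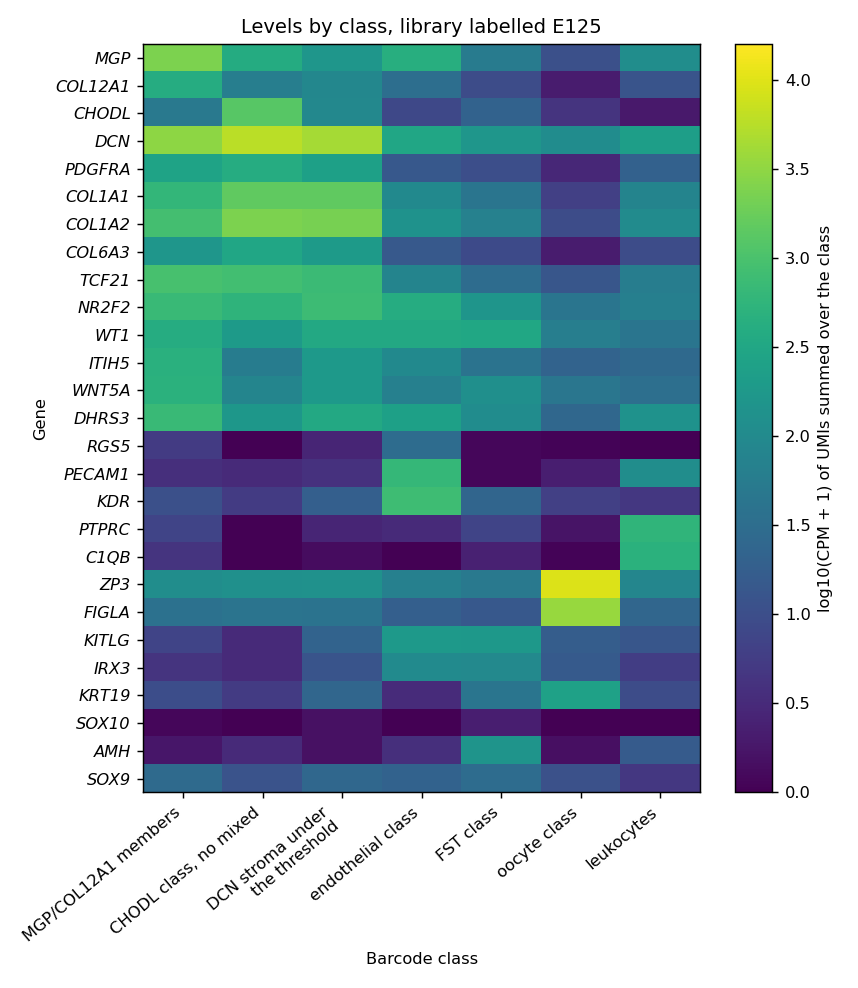
Levels of 27 genes (rows) in 7 barcode classes of the library labelled E125 (columns), as log10 of CPM plus 1 from UMIs summed over each class; the CHODL class is shown without its 17 mixed barcodes. Members have the high MGP and COL12A1 levels that chose them and carry DCN, TCF21 and NR2F2, while PTPRC, PECAM1 and FIGLA are high in the leukocyte, endothelial and oocyte classes.

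The RNA of members was rich in secreted matrix and growth factor regulators. Among matrix genes SPARC, a collagen-binding glycoprotein, was at 1410.1 CPM and SERPINH1, the collagen chaperone of the endoplasmic reticulum, at 1241 CPM. Versican (VCAN) was at 603 CPM and fibulin FBLN1 at 526 CPM. PTN, the heparin-binding growth factor pleiotrophin, was at 3207 CPM. A set of 3 binding proteins of insulin-like growth factors were well measured, with IGFBP5 at 1561 CPM, IGFBP6 at 919 CPM and IGFBP2 at 791 CPM.

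Retinoid genes and chemoattractants were also present. RARRES2, which encodes the chemoattractant chemerin, was at 2531 CPM. DHRS3, which reduces retinal to retinol, was at 713 CPM. ALDH1A1 and ALDH1A3, which make retinoic acid, were at 114 and 60.7 CPM. CXCL10, an interferon-induced chemokine, was at 904 CPM, beside 642 CPM in leukocytes, and was found in 28.8% of thinned members and 19.9% of thinned leukocytes.

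Genes related to the chemistry of MGP were measured in the same barcodes. The carboxylase GGCX was at 6.87 CPM and VKORC1, which recycles vitamin K, at 29.3 CPM. Other carboxylated secreted proteins were GAS6, a ligand of TAM receptors, at 101 CPM and PROS1, protein S, at 130.3 CPM. BGLAP, the bone protein osteocalcin, was at 0.170 CPM.

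The CHODL class of the same library addressed which genes differ between its stromal classes beyond those of the rule. It holds the barcodes with at least 3 CHODL UMIs and more of them than of MGP and COL12A1, under the other limits of the members, and numbered 135. Of these, 17 carried at least 2 UMIs of mesothelial or of pregranulosa markers, with a median of 22647 UMIs, and they supplied 50.7% of the UMIs of the class. Each value is therefore given first without these mixed barcodes (118 left, median 3316 UMIs) and then for the whole class, and the removal was chosen after seeing the data.

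Compared with CHODL stroma, members had more RNA of WNT5A, ITIH5, SERPINF1, DHRS3 and IGFBP2, and less of DKK1, IGFBP3, INHBA, LTBP1 and the collagen I genes. Of 6432 features with a mean of at least 10 CPM, 332 were at least 2-fold higher in members (5.16%) and 248 at least 2-fold lower (3.86%). For the whole class the numbers were 309 (4.71%) and 352 (5.36%) of 6566. The higher genes were thus 57.2% of those past 2-fold without the mixed barcodes and 46.7% with them.

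ITIH5, a hyaluronan-associated protein of the matrix, was at 463 CPM in members and 57.6 CPM in the CHODL class, 8.04-fold higher (5.48 to 12.3), and 12.1-fold higher than in the whole class. WNT5A, a ligand of non-canonical WNT signalling, was at 488 and 79.7 CPM, 6.11-fold higher (4.41 to 8.74), and 2.54-fold with the mixed barcodes. SERPINF1, the secreted anti-angiogenic serpin PEDF, was at 153 and 15.5 CPM and 9.86-fold higher (4.77 to 24.6), and 4.24-fold in the whole class. PCOLCE2, an enhancer of procollagen processing, was 9.32-fold higher without and 1.26-fold higher with the mixed barcodes. The adhesion molecule CADM1 behaved likewise, at 8.11-fold and 1.13-fold, so both depend on that removal.

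DHRS3 was 4.35-fold higher in members (713 against 164 CPM) and 7.50-fold in the whole class. IGFBP2 was 4.64-fold higher (791 against 171 CPM) and 1.84-fold in the whole class. ID3, a target of BMP signalling that blocks helix-loop-helix factors, was 4.25-fold higher, and 2.49-fold in the whole class. The membrane WNT inhibitor APCDD1, the myeloid-restraining glycoprotein CD200, the glutamate receptor subunit GRIN2B and IVNS1ABP were also among the 12 higher genes that the naming rule took, at 4.10-fold to 8.79-fold. In the whole class these 4 were 2.92-fold to 17.8-fold higher.

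Lower genes included DKK1, a secreted WNT antagonist, at 6.45 CPM in members and 59.8 CPM in the CHODL class, 9.27-fold lower (5.74 to 14.6), and 5.08-fold in the whole class. IGFBP3 was 6.11-fold lower (17.4 against 106 CPM) and the ephrin receptor EPHA7 5.79-fold lower, and in the whole class 3.08-fold and 3.44-fold. INHBA, the activin A subunit, was 4.36-fold lower (43.2 against 188 CPM), and 2.50-fold in the whole class. LTBP1, which holds latent TGF-beta in the matrix, was 3.22-fold lower (163 against 525 CPM) and 3.31-fold in the whole class. Osteoglycin (OGN), a small proteoglycan, was 2.89-fold lower, and 2.11-fold in the whole class.

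Collagen I and decorin depended on the mixed barcodes. COL1A2 was at 873 CPM in members and 2388 CPM in the CHODL class, 2.73-fold lower (2.57 to 2.91), and 1.39-fold lower for the whole class. COL1A1 was 2.45-fold lower, and 1.23-fold for the whole class. DCN was 1.91-fold lower, yet 1.03-fold higher (0.986 to 1.07) against the whole class. Among the lower genes that the naming rule took for the whole class were TOX3, IRX5 and IRX3, a homeodomain factor of pregranulosa cells. IRX3 was at 93.9 CPM in the whole class and 2.21 CPM without the mixed barcodes. Because IRX3 and IRX5 are among the pregranulosa markers that chose the mixed barcodes, this fall follows from the removal.

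**Figure D3:**
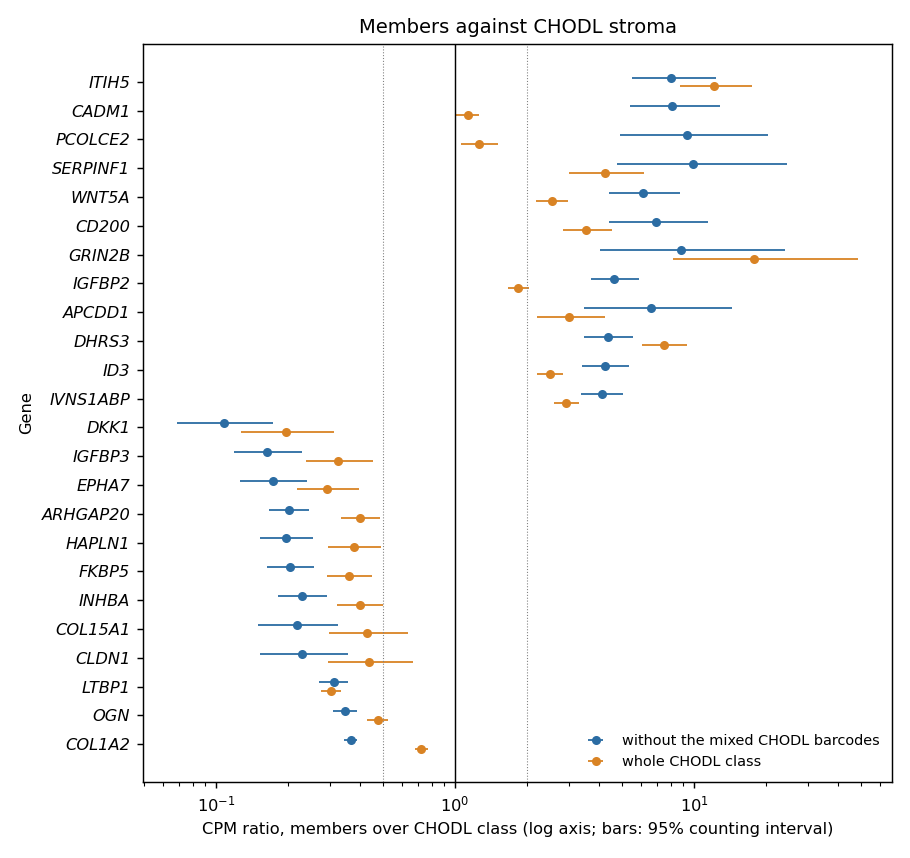
CPM ratio of members over the CHODL class (horizontal axis, log scale) for the 12 higher and 12 lower genes taken by the naming rule (vertical axis), with 95% counting intervals as bars; blue leaves out the 17 mixed CHODL barcodes and orange keeps them. ITIH5 and DHRS3 lie above 4-fold either way, CADM1 and PCOLCE2 are near 1 with the mixed barcodes, and all 12 lower genes lie under 1 in both.

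By gene list, collagens were mostly lower and WNT genes more often higher than lower without mixed barcodes. Over all features 5.16% were at least 2-fold higher and 3.86% lower without them, and 4.71% and 5.36% against the whole class. Of 11 measured fibril-forming and fibril-associated collagens, 1 was above a ratio of 1, 0 were 2-fold higher and 6 were 2-fold lower, with a median log2 ratio of -1.01, against 0.05 over all features. For the whole class the same list had 1 higher, 1 lower and a median of -0.03. Of 10 WNT ligands and modulators 5 were 2-fold higher and 2 lower, with a median of 1.02. With the mixed barcodes 3 of 9 were higher, 1 was lower and the median was -0.46, so the sign of this median turned.

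Of 17 matricellular and adhesive glycoproteins 1 was at least 2-fold higher and 4 were lower (median -0.28), and against the whole class 6 were higher and 2 lower (0.21), so the sign of this median turned too. Of 8 small leucine-rich proteoglycans 0 were 2-fold higher and 2 lower (median -0.82), and of 9 smooth muscle contraction genes 0 were higher and 1 lower (-0.48), and both medians were above 0 for the whole class, at 0.10 and 0.31. Retinoid genes had 2 of 7 higher and 0 lower (0.23), led by DHRS3. Of 18 gonadal and mesenchymal transcription factors 1 was higher and 4 were lower (-0.29). In that list TCF21 was at a ratio of 1.12, or 2.20 against the whole class. The 1 of 17 and the 1 of 18 genes higher stood near the 5.16% higher over all features, where 3.86% were lower. Complement genes (6 measured) and steroid and orphan nuclear receptors (5 measured) had 0 past 2-fold in either direction, while the whole class gave 1 higher and 2 lower complement genes.

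DCN-positive stroma that fell under the threshold gave a larger comparison within the same library. These 1708 barcodes had at least 1 DCN UMI, fewer than 3 UMIs of the class genes and of CHODL, and fewer than 2 of immune markers. Their median depth was 2582 UMIs, against 3143 in members. Members had no such immune limit, and 23 of them held at least 2 immune marker UMIs. Immune markers summed to 36.8 CPM in members and 5.85 CPM under the threshold. The comparison was chosen after seeing the data, and DCN itself was used to choose the barcodes. Of 6589 features only 66 were at least 2-fold higher in members (1%) and 128 at least 2-fold lower (1.94%).

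Several genes named against CHODL stroma differed in the same direction here, though both comparisons share the members and are not independent. WNT5A was 2.63-fold higher in members (488 against 185 CPM), SERPINF1 2.88-fold, PCOLCE2 2.75-fold, ITIH5 2.54-fold and ID3 2.45-fold. WIF1, a secreted inhibitor that binds WNT proteins, was 3.48-fold higher (71.6 against 20.6 CPM), and the lipocalin APOD 2.96-fold. On the lower side IGFBP3 was 7.55-fold lower, INHBA 4.68-fold, LTBP1 3.68-fold, COL1A1 2.49-fold and COL1A2 2.46-fold. ACTA2, at 159 against 470 CPM, and PENK, the enkephalin precursor, at 117 against 347 CPM, were also lower in members.

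Some genes that define gonadal mesenchyme differed little between members and the stroma under the threshold. PDGFRA was at 269 and 247 CPM, NR2F2 at 707 and 770.2 CPM, WT1 at 401 and 337 CPM and IGFBP5 at 1561 and 1648 CPM. PTN was at a ratio of 1.01 (0.995 to 1.03). Of 11 collagens 0 were above a ratio of 1 and 2 were at least 2-fold lower, beside 1.94% of all features. Their median log2 ratio was -0.80, against -0.01 over all features. Mesothelial markers summed to 37.7 CPM in members and 112 CPM under the threshold, and pregranulosa markers to 55.9 and 103 CPM, and the part of such cells in the differences was not tested.

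Stroma of the E85 and E105 libraries was set beside the members to show where they differ. It was taken as barcodes with at least 3 UMIs of CCN3, SHOX2, TAC1 and NTRK2 together, more of these than of AMH, INHA and SOX9, fewer than 2 endothelial UMIs and no PTPRC, and numbered 1073 at E85 and 1724 at E105. At E85, 40 of these barcodes held at least 2 UMIs of the germ cell genes DDX4 and DAZL and supplied 24.8% of the UMIs, and at E105 8 such barcodes supplied 2.85%. For E85 a second value without them follows where it differs by over 1.5 times. Both comparisons share the members, so their lists are not independent of each other.

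More features were past 2-fold against this stroma than against other stroma of the members' own library. Against E85, 929 of 6868 features were at least 2-fold higher in members (13.5%) and 1043 at least 2-fold lower (15.2%). Without germ-marker barcodes 1025 (15.5%) were higher and 692 (10.5%) lower, and higher genes were 59.7% of those past 2-fold in place of 47.1%. Centring on the median ratio also moved that share, to 57.2%. Against E105, 778 of 6790 were higher (11.5%) and 855 lower (12.6%), and centring moved the share of higher genes from 47.6% to 55.8%. Among the 12 lower genes ranked first against E85 were MORC1, LIN28B, STK31 and other germ cell genes. DMRT1 was at 162 CPM at E85, 16.2 CPM without germ-marker barcodes and 1.61 CPM in members.

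IGFBP5, IGFBP2, DHRS3 and ITIH5 were higher in members than in this stroma of both libraries. IGFBP5 was at 1561 CPM in members, 42.9 CPM at E85 and 57.4 CPM at E105, or 36.4-fold (30.8 to 43.3) and 27.2-fold (24.1 to 30.8) higher. IGFBP2 was 11.6-fold higher than at E85, 55.8-fold without germ-marker barcodes, and 11.3-fold higher than at E105. DHRS3 was at 713, 20.7 and 30.0 CPM, or 34.4-fold and 23.8-fold higher. ITIH5 was at 463, 5.48 and 3.43 CPM, or 84.5-fold and 135-fold higher. IGFBP6, by contrast, was at 919, 400 and 927 CPM, a ratio of 0.991 (0.957 to 1.03) against E105. Of 12 insulin-like growth factor genes 4 were at least 2-fold higher and 1 lower against E85 (median log2 ratio 0.42). Without germ-marker barcodes 3 of 12 were higher and 2 lower (0.13). Against E105, 3 of 11 were higher and 2 lower (-0.01).

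Further secreted or membrane proteins that the naming rule took were near 0 in this stroma of both libraries. APOD was 84.5-fold and 67.5-fold higher in members, SERPINF1 83.7-fold and 71.3-fold, and the semaphorin SEMA3D, a guidance ligand, 59.5-fold (119-fold without germ-marker barcodes) and 113-fold. SULF1, which trims heparan sulfate, was at 230 CPM in members, 0.913 CPM at E85 and 4.93 CPM at E105. ANO4, a membrane scramblase, was at 168, 2.43 and 0.428 CPM. Without germ-marker barcodes SULF1 and ANO4 had 0 UMIs at E85, which makes them at least 189-fold and at least 139-fold higher in members.

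C3, WIF1, SFRP2, WNT5A and CXCL12 were also higher, while other complement and WNT genes were lower. Complement C3 was at 347, 13.7 and 11.1 CPM, 25.3-fold higher than at E85, or 85.6-fold without germ-marker barcodes, and 31.1-fold higher than at E105. C3 was at 607 CPM in leukocytes of the library labelled E125, and their part in the level was not tested. WIF1 had 0 UMIs at E105, which makes it at least 111-fold higher in members against a floor of 3 counts over the class, and at E85 it was 47.1-fold higher (20.1 to 145), with 1 UMI left without germ-marker barcodes. SFRP2, a secreted modulator of WNT signalling, was 11.1-fold and 5.58-fold higher, and WNT5A 2.06-fold higher than at E105. CXCL12, the chemokine that binds CXCR4, was 14.1-fold and 9.11-fold higher. On the lower side C7, of the terminal complement pathway, was 3.02-fold and 8.10-fold lower. DKK1 was 5.10-fold and 13.1-fold lower, and the secreted WNT antagonist FRZB was at ratios of 0.733 and 0.651.

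Transcription factors gave mixed values. WT1, a zinc finger factor of gonadal mesenchyme, was at 401, 89.8 and 97.0 CPM, or 4.47-fold and 4.14-fold higher. GATA6 was 9.86-fold higher than at E85, or 16.3-fold without germ-marker barcodes, and 9.06-fold higher than at E105. LHX9, a homeodomain factor of the early gonad, was 10.6-fold and 21.4-fold lower. TCF21 was at ratios of 1.45 (1.39 to 1.52) against E85 and 0.828 (0.802 to 0.855) against E105, in opposite directions, and NR2F2 at 1.28 and 1.14.

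DLK1, a membrane ligand of immature mesenchyme, led the genes lower in members in the rank against E105. It was at 27.1 CPM in members, 2287 CPM at E85 and 3186 CPM at E105, or 84.5-fold (75.5 to 94.8) and 118-fold (105.3 to 132) lower. Lumican (LUM) was at 73.0, 941 and 1065 CPM, or 12.9-fold and 14.6-fold lower. POSTN was 17.2-fold and 13.7-fold lower, and INHBA 9.33-fold and 13.1-fold lower. HHIP, a hedgehog-induced inhibitor of hedgehog ligands, was at 4.50, 116 and 68.6 CPM, or 25.8-fold and 15.2-fold lower. CYP17, the enzyme of androgen synthesis, was at 2.97, 85.8 and 65.1 CPM.

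By list, WNT ligands and modulators had 6 of 9 at least 2-fold higher and 1 lower against E85 (median log2 ratio 1.42, against -0.16 over all features) and 7 of 9 higher and 1 lower against E105 (2.39, against -0.13). Matricellular and adhesive glycoproteins had 9 of 14 higher and 1 lower (2.44), and 7 of 15 higher and 2 lower (0.65). Small leucine-rich proteoglycans had 3 of 8 higher and 2 lower (-0.11), and 2 of 8 higher and 4 lower (-1.09). Genes of the G1/S and S phase had 0 higher and 6 lower of 10 against E85 (-1.20) and of 11 against E105 (-1.19). The replication clamp PCNA among them was 2.46-fold lower than at E105. Complement genes had 4 of 6 higher and 1 lower (2.04), and 3 of 6 higher and 1 lower (1.11). Collagens had 3 of 12 higher and 3 lower (0.21), and 2 of 12 higher and 3 lower (-0.45). Gonadal and mesenchymal transcription factors had 3 of 20 higher and 6 lower, and 2 of 20 higher and 8 lower. Without germ-marker barcodes at E85 the sign of the collagen median turned, to -0.19, with 3 of 12 higher and 3 lower. WNT genes then had 7 of 9 higher and 1 lower (2.40), and small leucine-rich proteoglycans 2 of 8 higher and 2 lower (-0.50). The transcription factors had 4 of 19 higher and 5 lower. Medians of the other lists named here kept their sign. Of all features, 13.5% were at least 2-fold higher and 15.2% lower against E85, or 15.5% and 10.5% without germ-marker barcodes. Against E105 these shares were 11.5% and 12.6%. The 3 of 20 and 2 of 20 transcription factors that were higher stood near the 13.5% and 11.5%.

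Single stress, Sertoli and oocyte genes and depth also differed between these classes. The immediate early gene JUN was at 651 CPM in members, 29.5 CPM at E85 and 145 CPM at E105, and the list of dissociation stress genes had 3 of 7 at least 2-fold higher and 1 lower against E85, and 1 of 7 higher and 0 lower against E105. The lower gene was the chaperone HSPA8, at ratios of 0.458 and 0.561. The share of the list past 2-fold higher at E105 was near the 11.5% over all features. Against E85 13.5% of all features were at least 2-fold higher and 15.2% lower. AMH, a Sertoli gene, was at 0.764, 32.9 and 75.8 CPM, and ZP3 at 113, 0.609 and 0.643 CPM. Median depth was 3143 UMIs in members, 2225 at E85 and 2395 at E105. The part of handling, free RNA and depth in the differences was not tested.

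**Figure D4:**
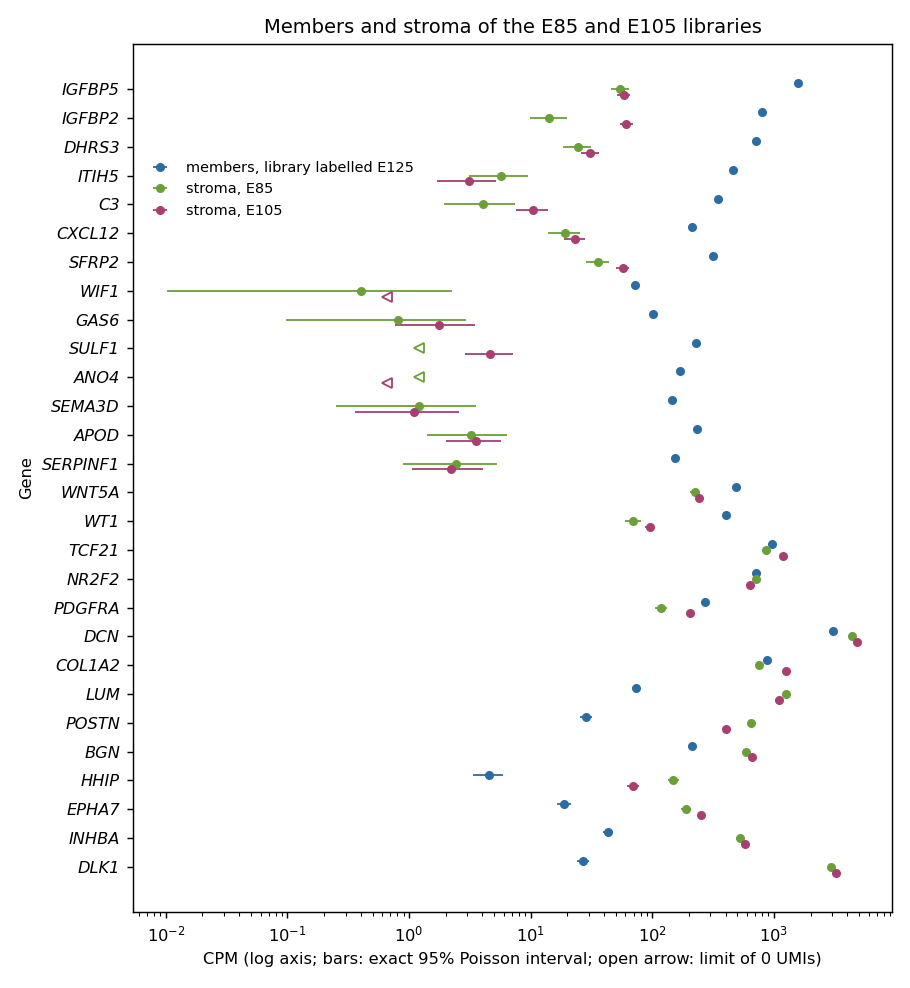
Levels (CPM, log axis) of 28 genes in members and in stroma of the E85 and E105 libraries without germ-marker barcodes, with exact 95% Poisson intervals as bars and open arrows at the limit that 0 UMIs allow. IGFBP5, DHRS3 and ITIH5 are to the right in members and DLK1, LUM and POSTN to the left. For TCF21, NR2F2 and DCN the levels of the 3 classes lie within 2-fold of each other.

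Members varied along the balance of their defining genes. MGP exceeded COL12A1 in 2938 members and COL12A1 exceeded MGP in 219, with 92 ties left out, and median depths were 3150.5 and 3188 UMIs. MGP was at 2547 CPM in the MGP-led and 519 CPM in the COL12A1-led members, and COL12A1 at 325 and 1188 CPM, as the split fixes. Of 6646 other features, 55 were at least 2-fold higher in MGP-led members (0.828%) and 147 at least 2-fold lower (2.21%). Higher genes were 27.2% of those past 2-fold, or 38.6% after centring on the median ratio.

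MGP-led members had more RNA of CXCL10, ISG15 and complement genes. CXCL10 was at 973 CPM in MGP-led and 257 CPM in COL12A1-led members, 3.78-fold higher (3.30 to 4.35). ISG15, an interferon-induced ubiquitin-like modifier, was at 76.2 and 19.1 CPM, 4.00-fold higher (2.45 to 7.04). C3 was 2.25-fold higher (364 against 162 CPM) and CFD, complement factor D, 2.05-fold. Of 6 complement genes all were above a ratio of 1 and 2 were past 2-fold, beside 0.828% of all features. Their median log2 ratio was 0.96, against -0.09 over all features. Leukocytes held CXCL10 at 642 CPM and C3 at 607 CPM, and the part of their RNA in this difference was not tested.

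COL12A1-led members had more RNA of contractile genes, collagen I and mitosis genes. ACTA2 was at 129 CPM in MGP-led and 556 CPM in COL12A1-led members, a ratio of 0.232 (0.208 to 0.258). MYH11 was at 204 and 529 CPM, and ACTG2, enteric smooth muscle actin, at 85.8 and 256 CPM. Of 10 smooth muscle contraction genes 7 were at least 2-fold lower in MGP-led members and 0 higher, with a median of -1.13. Of all features 2.21% were lower by that much and 0.828% higher. Of 5 measured mural markers, MYH11 among them, 2 were at least 2-fold lower in MGP-led members and 0 higher (median -0.41). RGS5 was near the floor, with 0 UMIs in COL12A1-led members and 4.80 CPM in MGP-led members. Without barcodes holding at least 2 UMIs of immune, mural, mesothelial or Schwann markers, 96 COL12A1-led members were left. Of the higher and lower genes ranked first for this split, 14 then moved outside their counting interval and 8 did not, with 0 reversed. That filter itself uses MYH11, and the part of mural cells in this difference was not tested.

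COL1A1 was at 540 CPM in MGP-led and 1338 CPM in COL12A1-led members, and COL1A2 at 805 and 1784 CPM. POSTN and the secreted angiopoietin-like protein ANGPTL5 were at ratios of 0.300 and 0.142. The kinetochore gene CENPF was at 277 and 742 CPM. Of 10 G2/M genes 4 were at least 2-fold lower in MGP-led members, beside 2.21% of all features. WNT5A and ITIH5 did not follow the split: WNT5A was at a ratio of 1.22 (1.09 to 1.36), and ITIH5 was at 462 and 467 CPM. DHRS3 was at a ratio of 1.06 (0.975 to 1.16).

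**Figure D5:**
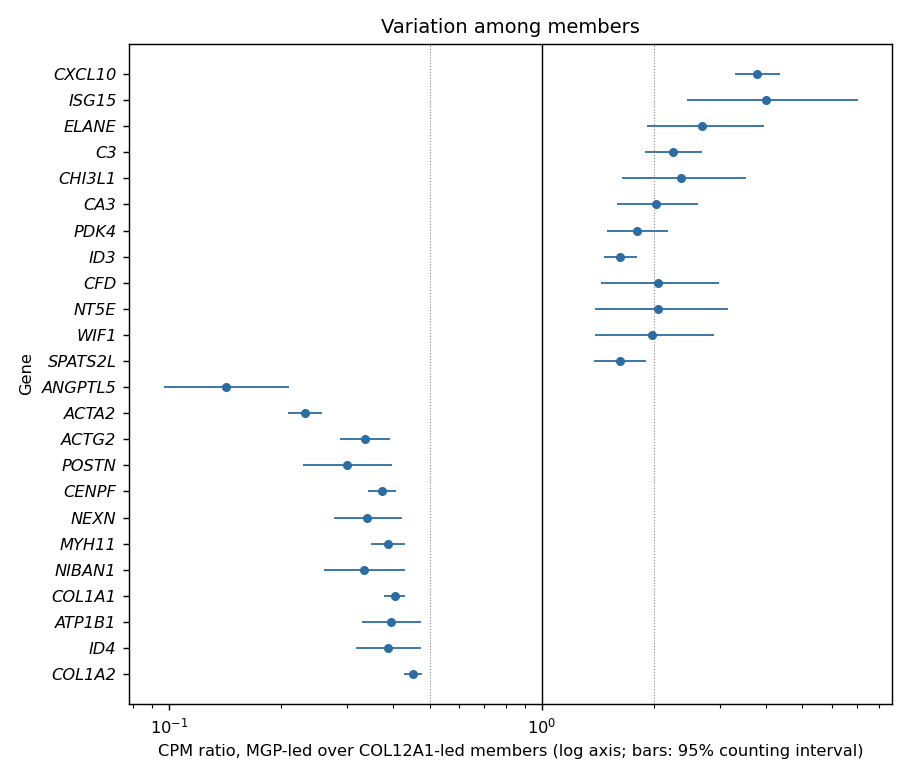
CPM ratio of MGP-led over COL12A1-led members (horizontal axis, log scale) for the 12 higher and 12 lower genes taken by the naming rule (vertical axis), with 95% counting intervals as bars. CXCL10 and ISG15 lie near 4-fold, and ACTA2, ACTG2, MYH11, COL1A1 and COL1A2 lie under a ratio of 0.5.

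Some genes varied between members more than the median gene. After thinning to 1000 UMIs, counts of CENPF varied between members with a variance of 9.87 times the mean, CXCL10 6.6 times, TOP2A 5.86 times and ISG15 5.30 times, against a median of 1.03 over 2189 genes. Subsets were then set by UMIs of such genes, after seeing these values, so they are described with no test. Raw UMIs set them, and deeper barcodes enter more easily.

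At least 3 UMIs of G2/M genes were found in 189 members (5.82%), with a median of 5538 UMIs against 3082 in the others. Thinned to 1000 UMIs the share was 3.32% (2.73 to 4.00) in members, 4.45% (3.52 to 5.54) in stroma under the threshold, 3.39% in the CHODL class without mixed barcodes, 4.47% at E85 and 4.47% at E105. The shares of MGP-led and COL12A1-led members were 3.1% (2.50 to 3.79) and 5.94% (3.20 to 9.94), whose intervals overlapped. The 189 deeper barcodes had IGFBP5 at 763 CPM, against 1649 CPM in the other members, and C3 at 145 against 369 CPM.

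CXCL10 reached at least 3 UMIs in 785 members (24.2%), with a median of 3974 UMIs against 2938. CCL11, the eotaxin chemokine, was at 131 CPM in them and 7.37 CPM in the others. TOP2A, a topoisomerase of dividing cells, was at 443 and 108 CPM, and 39.2% of the cycling members were in this subset. DHRS3 was at 512 and 803 CPM and ITIH5 at 331 and 522 CPM.

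ISG15 reached at least 2 UMIs in 91 members (2.80%). These carried other interferon-induced antiviral genes, with MX1 at 938 CPM against 45.4 CPM in the other members, OAS1 at 776 against 78.5 CPM and IFIT1 at 515 against 31.9 CPM. IFNG, a cytokine of lymphocytes, had 49 UMIs in this subset and 0 in the others, and CTSW, a lymphocyte protease, was at 52.3 against 4.57 CPM. The part of lymphocyte RNA in the subset was not tested.

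ACTA2 reached at least 3 UMIs in 157 members (4.83%), with a median of 5490 UMIs. POSTN was at 201 CPM in them and 13.5 CPM in the others, ACTG2 at 441 and 68.1 CPM and CENPF at 1241 and 227 CPM. APOD, at 79.2 against 245 CPM, and PCOLCE2, at 73.9 against 196 CPM, were low in the same barcodes. The MGP and COL12A1 level was 1478 CPM in this subset and 2877 CPM in the other members.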

How the data were processed

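Raw UMI counts per feature and barcode were deposited for 3 libraries, made with Cell Ranger 6.0.0 per the file headers and 3.1 per the submitters' processing notes; the genome build and annotation: not given in the sources used here. Members and gene lists were chosen with earlier results of these data known. Of 27271 features 16616 had a symbol, and features without one held 36.2% of the UMIs of members. Of 498 listed genes 442 had a symbol in the files, and the rest were not analysed here. UMIs were summed over a class and given as CPM of all UMIs. Intervals at 95% are Poisson for levels, Clopper-Pearson for shares and, for ratios, binomial from how the UMIs of a gene divide between the classes, with a limit of 3 counts for 0. Features with a mean of at least 10 CPM over both classes were compared, without rule genes, and counted past 2-fold. Log2 ratios had a prior of 0.5 UMI. The naming rule took 12 higher and 12 lower genes per comparison, with a symbol, not ribosomal, mitochondrial or haemoglobin genes, at least 50 CPM in either class, no other class of the library above 10 times that level, ranked by the interval bound nearest 1, plus up to 4 genes of each of 33 lists and class markers. Genes named in subsets, in the levels of members and beside the stages were also taken after their values were seen. For shares, barcodes were thinned to 1000 UMIs, which all kept barcodes reach.

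No doublet caller was run. Alternatives dropped barcodes with at least 2 UMIs of another type's markers, or the top 6% by UMIs. As a departure from the plan, oocyte-class barcodes were removed from the other classes, and immune barcodes used as background were limited to leukocytes. Levels of the 41 E85 barcodes that met the member rule are also given, though the plan compared no class under 50 barcodes. The interval step was tested on simulated counts. Python 3.11.15, numpy 2.4.6, scipy 1.17.1, pandas 2.3.3 and matplotlib 3.10.9 were used. Some genes are not reported here.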

Additional observations from a re-analysis of the deposited data

How the results depend on the processing

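No paired analysis was possible because each stage has 1 library. The share of 44.4% became 35.2% with at least 5 class UMIs, 46.0% with at least 2000 UMIs per barcode, 53.2% without barcodes with markers of other types and 47.0% without the top 6% by UMIs. Counts past 2-fold, higher and lower in members, moved by over 1.5 times as follows. Against CHODL stroma, 520 were higher with at least 5 class UMIs and 656 without marker-mixed barcodes. Those settings also bound the CHODL class (at least 5 CHODL UMIs in the first), which fell to 55 and 56 barcodes. The counts were 78 and 97 at a mean of at least 50 CPM, and 1479 and 3979 with no filter. Between MGP-led and COL12A1-led members they were 83 and 261 with at least 5 class UMIs, 134 and 491 without mixed barcodes, 7 and 22 at 50 CPM, and 785 and 3901 with no filter, with 224 lower by means over barcodes. Against E85, 689 were lower by means over barcodes and 692 without germ-marker barcodes, with 321 and 310 at 50 CPM and 2429 and 5398 with no filter. Against E105 they were 243 and 256 at 50 CPM and 2722 and 4030 with no filter. Fewer or more features are tested under the level filters. Of the 24 genes ranked first per comparison, 0 turned direction in the 221 to 251 values available per comparison, and 13 to 43 values moved outside the counting interval. The genes were picked in these same data for ratios far from 1, and the settings reuse the same barcodes. A turn was thus unlikely from the start, and its absence says little. Against CHODL stroma these 24 are the genes ranked on the whole class, and without its mixed barcodes only some gave a value, of which 8 moved and 5 did not. Small classes limit precision: the CHODL class had 135 barcodes and the COL12A1-led members 219. With at least 5 class UMIs and without marker-mixed barcodes, the COL12A1-led members fell to 135 and 96.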

Other observations

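PENK, the precursor of enkephalin peptides, reached at least 3 UMIs in 111 members (3.42%), and its thinned counts had a variance of 8.22 times their mean. In those barcodes the retinoic acid carrier CRABP1 was at 85.2 CPM, against 13.8 CPM in the other members, IGFBP3 at 68.9 against 15.1 CPM, LTBP1 at 448 against 150.5 CPM, LUM at 207 against 67.1 CPM, DLK1 at 79.1 against 24.8 CPM and COL1A1 at 1359 against 566 CPM. IGFBP3, LTBP1, DLK1 and LUM were also lower in members than in the stroma under the threshold. Their MGP and COL12A1 level was 2113 CPM, against 2793 CPM in the others.

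C3 reached at least 3 UMIs in 426 members (13.1%). These had CFD at 163 CPM against 60.5 CPM in the other members and the matrix protein SPON1 at 290.0 against 120.0 CPM. AIF1 and LAPTM5, genes of leukocytes, were at 62.2 against 5.61 CPM and 51.1 against 6.81 CPM, and KRT8 and CLDN1, genes of epithelia, at 57.8 against 6.01 CPM and 57.2 against 6.51 CPM. Of these members 43.7% also reached the CXCL10 limit. The part of RNA from leukocytes and epithelium in this subset was not tested.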
